A study of Mus musculus with 30 samples.

Results

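Gata2, Dlx3, Esx1, Rhox6, Id2 and Plac8 are 6 of the 12428 genes measured in a 3' RNA-seq study of mouse naive embryonic stem cells. They are trophoblast genes selected on measured values, namely higher levels with tamoxifen than with ethanol at 8 h in 1 of the study's lines. All 6 were found in the deposited table by symbol, in all 30 libraries, and all 6 passed the filter on low values. The study asks how KMT2C and KMT2D affect activation by GRHL2, a transcription factor supplied here as a GRHL2-ERT fusion that tamoxifen switches on. The cells, from a C57BL/6J x 129 background, were kept naive with inhibitors of MEK and GSK3 beside LIF and serum. The 30 libraries form 10 groups of 3. Cells labelled Kmt2cKO; Kmt2dKO;GRHL2-ERT, called dKOert below, received tamoxifen or its ethanol control for 16 h or 8 h. Cells labelled Kmt2cKO; Kmtd fl/fl;GRHL2-ERT, called CKOert, received the same agents for the same times. Cells labelled Kmt2cKO; Kmtd fl/fl, called CKO, carry no GRHL2-ERT, and their libraries used here are from tamoxifen for 16 h or 8 h. Every group therefore lacks intact Kmt2c. The lines with the fusion are clones, chosen for comparable GRHL2 levels per the series' design text.

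GRHL2 binds DNA as a dimer at enhancers and promoters of epithelial genes and can open chromatin there. KMT2C and KMT2D are related methyltransferases that place monomethyl marks on histone H3 lysine 4 at enhancers. Trophoblast is the outer lineage of the early embryo, which forms the fetal part of the placenta and is itself an epithelium. Some of its genes are low or off in naive embryonic stem cells, and others are expressed there.

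By role, Gata2 is a zinc-finger transcription factor of trophoblast giant cells and blood progenitors. Dlx3, Esx1 and Rhox6 are homeobox transcription factors: Dlx3 and Esx1 act in the labyrinth, the exchange layer of the mouse placenta, and Rhox6 is expressed in placenta and germ cells. Id2 is a helix-loop-helix protein without a DNA-binding region that holds E proteins inactive and is expressed in trophoblast progenitors. Plac8 is a small cysteine-rich protein first described in placenta. On mm10, with GENCODE mouse release 21, the genes lie at chr6:88193891-88207032 (Gata2, plus strand), chr11:95120119-95125296 (Dlx3, plus), chrX:137115397-137122083 (Esx1, minus), chrX:37826910-37829857 (Rhox6, plus), chr12:25093799-25097140 (Id2, minus) and chr5:100553725-100572245 (Plac8, minus). All 6 are annotated as protein coding, and Esx1 and Rhox6 share the X chromosome.

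Promoter sequences of RefSeq (GRCm38.p6, 250 bases before to 50 after a start) covered 4 of the genes with 6 promoters: 2 for Gata2, 2 for Plac8 and 1 each for Id2 and Esx1. They were searched on both strands for AACCGGTT, the palindrome to which Grainyhead factors bind, for its looser form AACNNGTT, and for its parts ACCGGT and CCGGTT. Among 32851 mouse promoters of the same 300 bases, AACCGGTT occurred in 0.146%, AACNNGTT in 4.2%, ACCGGT in 2.33% and CCGGTT in 6.83%. Neither AACCGGTT nor AACNNGTT occurred in any of the 6. A Plac8 promoter held the 1 match found, the letters ACCGGTT at 34 bases past the start, in which ACCGGT and CCGGTT overlap. The stretch around it is shown because it is the only one of the searched windows with such letters, with the match in capitals.
Plac8, chr5:100572157-100572180, minus strand: gaccacaggACCGGTTctgcccaa

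Depth ran from 8.86 to 22.1 M reads per library over the table's genes, so that 3 reads, the floor used here, equal 0.136 to 0.339 CPM (counts scaled to a common library total). Grhl2 tags averaged 57.5 ± 11.5 and 52.5 ± 7.89 CPM in dKOert cells with tamoxifen and ethanol at 16 h, 77.5 ± 11.5 and 77.6 ± 11.1 CPM in CKOert cells, and 1.78 ± 0.62 CPM in CKO cells (SD, n = 3 each, as throughout). At 8 h the averages were 78.3 ± 41 and 41.2 ± 10 CPM in dKOert cells, 170.1 ± 16 and 178 ± 28 CPM in CKOert cells and 2.66 ± 0.83 CPM in CKO cells, so the lines differed most at 8 h. Esr1 tags, a further check, averaged 30.6 ± 1.93 and 29.9 ± 4.65 CPM in dKOert cells with tamoxifen and ethanol at 16 h. CKOert cells had 61.2 ± 2.60 and 58.4 ± 3.54 CPM there, and CKO cells 6.78 ± 1.51 CPM. At 8 h the dKOert averages were 7.91 ± 7.44 and 13.9 ± 4.22 CPM, against 53.6 ± 11.3 and 31.2 ± 18.7 CPM in CKOert cells. CKO cells had 3.39 ± 0.40 CPM at 8 h. The part of these levels in the line differences was not tested. Kmt2c and Kmt2d tags were present in every group, and a 3' tag outside a deleted part checks nothing. The 3 dKOert libraries with tamoxifen at 8 h stood apart from one another, with mean within-group correlations of 0.965, 0.938 and 0.952, against at least 0.979 in every other library. Replicate 2 of them had the lowest depth, and replicate 3 had Gata2 and Plac8 levels inside the range of the ethanol libraries of the same line and time, unlike replicate 2. Naive stem cell markers (10 of 10 in the table) summed to between 2378 and 4976 CPM. Of 8 trophoblast stem cell markers, 5 were in the table, with sums of 131 to 303 CPM, and Cdx2, Elf5 and Hand1 were not analysed here. Esrrb is counted in both of these sets. Of 9 markers of differentiated trophoblast, 1 was in the table, Gcm1, at 0.0794 to 4.06 CPM.

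**Figure D1:**
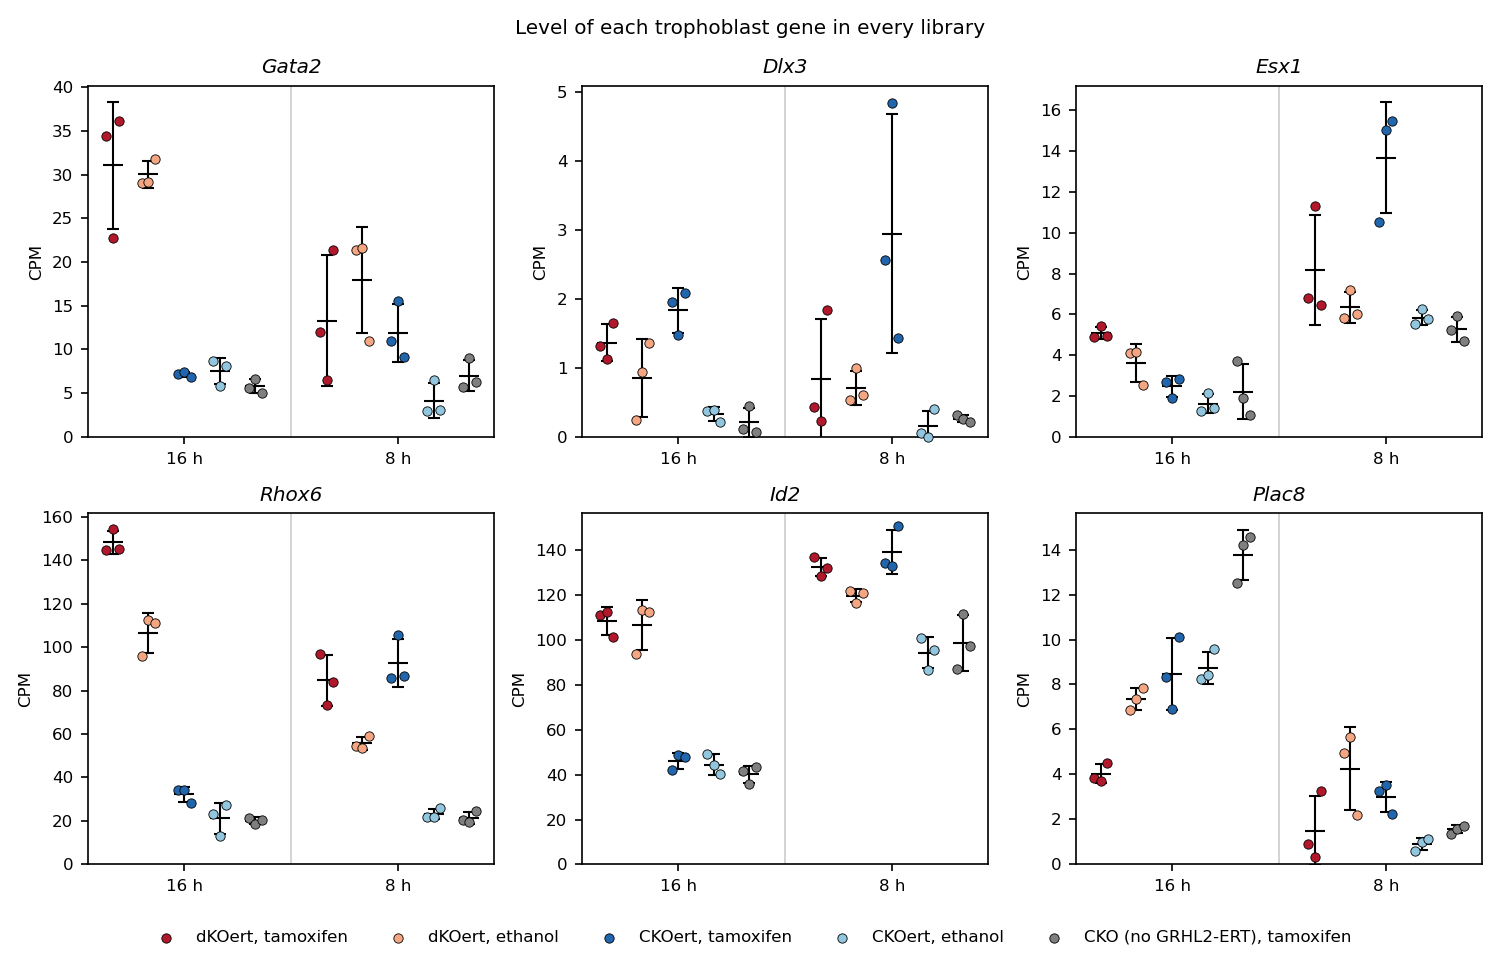
Level of each of the 6 trophoblast genes in CPM (vertical axis, linear) in every library, grouped by time, line and agent; points are libraries, and bars show the mean and SD of 3. Rhox6 is highest in dKOert cells with tamoxifen at 16 h, 145 to 154 CPM, and Plac8 is highest in CKO cells at 16 h, 12.5 to 14.6 CPM.

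In CKOert cells at 8 h, the contrast that chose the genes, all 6 had every tamoxifen library above every ethanol library. These values are a description, with no test. Over all genes 4.95% were called in this contrast, from which nothing is read here for genes chosen by it. The log2 difference was 1.96 ± 0.16 (SE) for Rhox6, 1.70 ± 0.29 for Dlx3, 1.35 ± 0.30 for Gata2, 1.08 ± 0.24 for Esx1, 1.07 ± 0.28 for Plac8 and 0.56 ± 0.11 for Id2, on the log2(CPM + 1) scale used for every difference below, which understates the change of low genes. Their median was 1.22, and the median of all 12414 genes tested was 0.03. Ordered by this difference, Rhox6 was number 17 of all genes, Dlx3 27, Gata2 62, Esx1 142, Plac8 146 and Id2 970.

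Among the transcription factors, Gata2 had 11.0, 15.5 and 9.09 CPM with tamoxifen, against 2.92, 6.49 and 3.08 CPM with ethanol. Dlx3 had 2.57, 4.84 and 1.43 CPM with tamoxifen, against 0.0595, 0 and 0.405 CPM with ethanol. Dlx3 was thus close to undetected without tamoxifen: these levels are 47, 73 and 31 reads with tamoxifen, against 1, 0 and 5 reads with ethanol, of which 2 libraries lie under the floor of 3 reads. Esx1 had 10.5, 15.1 and 15.5 CPM with tamoxifen, against 5.53, 6.25 and 5.76 CPM with ethanol. Rhox6 had 85.9, 105 and 86.5 CPM with tamoxifen, against 21.7, 21.6 and 25.7 CPM with ethanol, a ratio of means of 4.02. The spread of Rhox6 within either group was far smaller than the gap between the groups, whereas for Gata2 the gap lay between 9.09 and 6.49 CPM. For Id2, the E protein inhibitor, the levels were 134, 133 and 151 CPM with tamoxifen, against 101, 86.8 and 95.4 CPM with ethanol. Its ratio of means, 1.48, was the smallest of the 6. Plac8 had 3.28, 3.51 and 2.26 CPM with tamoxifen, against 0.595, 0.980 and 1.14 CPM with ethanol, a ratio of 3.34. In these bulk libraries, fewer or more cells that express a gene and less or more RNA per cell cannot be told apart. The summed naive stem cell markers moved with this contrast, at 2378 to 2484 CPM with tamoxifen, against 3001 to 3279 CPM with ethanol. The share of the ribosomal RNA gene Rn45s did as well, at 3.47%, 3.10% and 3.29% of CPM with tamoxifen, against 5.39%, 4.02% and 7.40% with ethanol. The part of either in the result was not tested.

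Just inside the choice, Id2 stood at 0.56, and around it in a list of 69 measured trophoblast genes lay Krt8 at 0.57 and Tfrc at 0.50, which were not among the chosen genes. Next below Plac8 came Flt1 at 0.87 and Phlda2 at 0.82, neither of them called. Trophoblast genes with differences as large as those of the chosen ones, such as Wnt7b and Sp6, are described further on.

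After 16 h of tamoxifen in CKOert cells, libraries that the choice did not use, none of the 6 genes passed the test, where 0.298% of all genes did (limma, Benjamini-Hochberg adjusted p under 0.05, two-sided). Dlx3 and Rhox6 were the 2 of the 6 with an unadjusted p under 0.05, and also the 2 whose groups did not overlap. Of all 12414 genes, 597 had an unadjusted p under 0.05 (limma). How many of all genes had groups without overlap was not counted in any comparison. Dlx3 had 1.95, 1.47 and 2.08 CPM with tamoxifen, against 0.380, 0.397 and 0.216 CPM with ethanol, a log2 difference of 1.09 ± 0.29 (limma adjusted p = 0.144). Rhox6 had 34.4, 34.2 and 28.3 CPM with tamoxifen, against 23.0, 13.3 and 27.1 CPM with ethanol, a difference of 0.64 ± 0.16 (limma adjusted p = 0.118). Every tamoxifen library was above every ethanol library for both genes, by a narrow margin for Rhox6. Without ethanol replicate 3 Rhox6 passed at 0.84 (limma adjusted p = 0.0207; 0.0207 to 0.944 over the libraries left out in turn). Without the 3 libraries that stood apart, which enter the shared estimate of spread, both passed, Dlx3 at an adjusted p of 0.0424 and Rhox6 at 0.0430 in limma (over the other settings, 0.00278 to 0.294 for Dlx3 and 0.0207 to 0.341 for Rhox6).

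The other 4 genes had overlapping groups at 16 h. Gata2 had 7.20, 7.42 and 6.84 CPM with tamoxifen, against 8.69, 5.80 and 8.13 CPM with ethanol. Esx1 had 2.70, 1.90 and 2.85 CPM with tamoxifen, against 1.27, 2.14 and 1.44 CPM with ethanol. Id2 had 42.1, 48.6 and 47.9 CPM with tamoxifen, against 49.1, 44.1 and 40.1 CPM with ethanol, so its range was nearly the same with either agent. Plac8 had 8.33, 6.93 and 10.1 CPM with tamoxifen, against 8.24, 8.42 and 9.56 CPM with ethanol. Their differences were 0.42 for Esx1, 0.06 for Id2 and -0.05 for both Gata2 and Plac8, each with an adjusted p of 1 in limma. The 95% intervals were -0.67 to 0.57 for Gata2, -0.64 to 0.53 for Plac8 and -0.16 to 0.28 for Id2. The values at 8 h chose the genes and are no measure against which these can be set.

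In dKOert cells at 8 h, none of the 6 genes passed the test, where 0.0967% of all genes did, and Plac8 and Rhox6 had an unadjusted p under 0.05 (limma). Of all 12414 genes, 2520 had an unadjusted p under 0.05. Rhox6 had 96.8, 73.2 and 84.1 CPM with tamoxifen, against 54.3, 53.5 and 59.1 CPM with ethanol, a difference of 0.59 ± 0.16 (limma adjusted p = 0.13). Its groups did not overlap, nor did those of Id2, with 137, 128 and 132 CPM under tamoxifen, against 122, 116 and 121 CPM under ethanol (0.14 ± 0.11, limma adjusted p = 0.441). Such groups were not counted over all genes, so nothing is read from the lack of overlap. Plac8 had 0.917, 0.339 and 3.26 CPM with tamoxifen, against 4.94, 5.67 and 2.18 CPM with ethanol, a difference of -1.18 ± 0.28 (limma adjusted p = 0.0882). Gata2 had 12.0, 6.55 and 21.3 CPM with tamoxifen, against 21.4, 21.6 and 11.0 CPM with ethanol. For both genes replicate 3 was the highest tamoxifen library and replicate 3 the lowest ethanol library, so the groups overlapped.

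Esx1 had 6.79, 11.3 and 6.46 CPM with tamoxifen in these dKOert cells, against 5.83, 7.21 and 6.02 CPM with ethanol. Dlx3 had 0.428, 0.226 and 1.85 CPM with tamoxifen, against 0.538, 0.998 and 0.607 CPM with ethanol. The differences were -0.49 ± 0.30 for Gata2, 0.29 ± 0.24 for Esx1 and 0.00 ± 0.29 for Dlx3 (limma adjusted p = 0.355, 0.504 and 0.997). These values rest on tamoxifen replicate 3. Without it 3 of the 6 genes passed, Plac8 lower at -1.65 (limma adjusted p = 0.000874), Gata2 lower at -0.88 (0.0281) and Rhox6 higher at 0.59 (0.0196), and 3145 genes passed in all, against 12 with it. Without ethanol replicate 3 Plac8 alone of the 6 passed, at -1.50 (limma adjusted p = 0.0200), among 54 genes. Under the settings that kept all libraries the adjusted p ran from 0.0882 to 1 for Plac8, from 0.323 to 1 for Gata2 and from 0.0966 to 1 for Rhox6.

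At 16 h in dKOert cells none of the 6 passed either, where 0.0403% of all genes did, and Plac8 and Rhox6 again had an unadjusted p under 0.05 (limma). That p was under 0.05 for 519 of all 12414 genes. Rhox6 had 145, 154 and 145 CPM with tamoxifen, against 95.8, 113 and 111 CPM with ethanol, a difference of 0.48 ± 0.16 (limma adjusted p = 0.717). Plac8 had 3.86, 3.73 and 4.51 CPM with tamoxifen, against 6.88, 7.36 and 7.85 CPM with ethanol, a difference of -0.73 ± 0.28 (limma adjusted p = 0.93). Esx1 had 4.88, 5.43 and 4.96 CPM with tamoxifen, against 4.09, 4.18 and 2.53 CPM with ethanol, a difference of 0.43 ± 0.24. All 3 had groups that did not overlap, with Plac8 on the low side under tamoxifen and the others on the high side. Groups without overlap were not counted over all genes, and nothing is read from their number. Gata2 had 34.4, 22.7 and 36.1 CPM with tamoxifen, against 29.1, 29.2 and 31.8 CPM with ethanol. Dlx3 had 1.31, 1.14 and 1.65 CPM with tamoxifen, against 0.248, 0.942 and 1.36 CPM with ethanol. Id2 had 111, 113 and 101 CPM with tamoxifen, against 93.6, 113 and 113 CPM with ethanol. The groups of these last 3 genes overlapped, with differences of 0.02 for Gata2, 0.40 for Dlx3 and 0.03 for Id2.

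**Figure D2:**
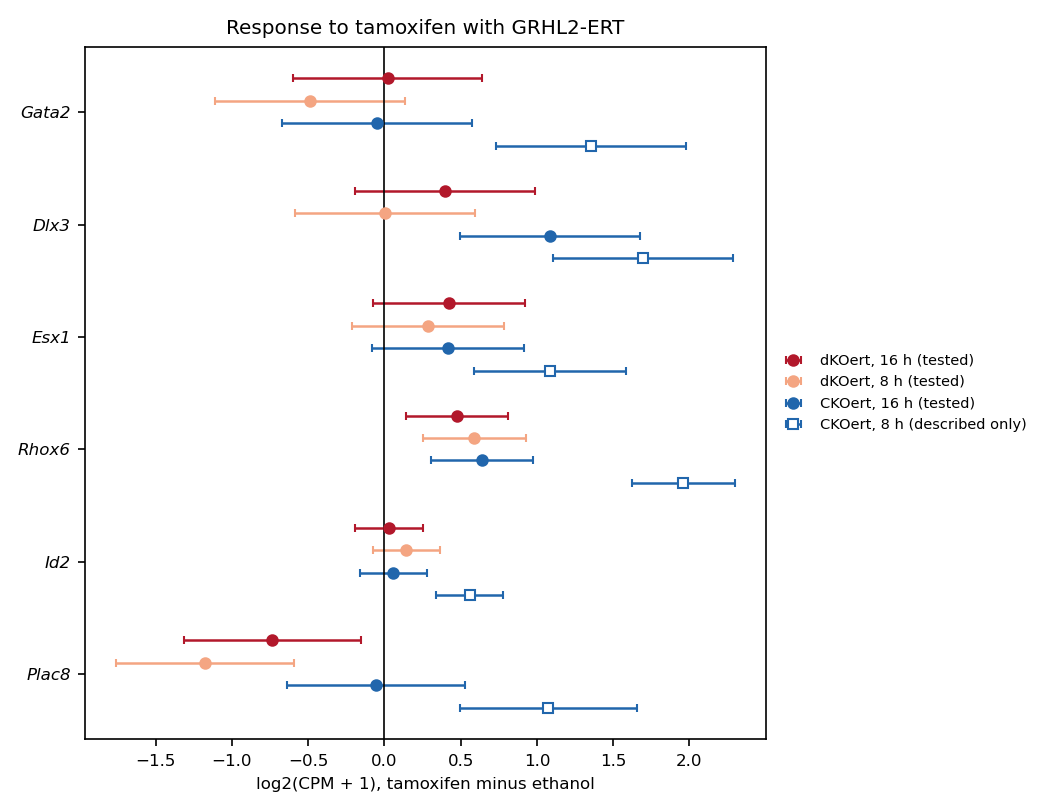
Difference in log2(CPM + 1) between tamoxifen and ethanol (horizontal axis) for each gene in dKOert and CKOert cells at 16 h and 8 h, with 95% intervals of the limma fit; open squares mark the contrast that chose the genes. The CKOert values at 8 h run from 0.56 to 1.96, and those for Plac8 in dKOert cells are -1.18 at 8 h and -0.73 at 16 h.

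The difference in response between the lines was described at 8 h, since the CKOert libraries chose the genes, and tested at 16 h. At 8 h the dKOert response minus the CKOert response was -2.25 ± 0.40 for Plac8, -1.84 ± 0.43 for Gata2, -1.69 ± 0.41 for Dlx3, -1.37 ± 0.23 for Rhox6, -0.80 ± 0.34 for Esx1 and -0.41 ± 0.15 for Id2. All 6 were negative, a direction to which the choice of genes contributes. At 16 h it ran from -0.69 ± 0.41 for Dlx3 to 0.07 ± 0.43 for Gata2, and none of the 6 passed (limma adjusted p = 1 for each). Here 0% of all genes passed, 315 genes had an unadjusted p under 0.05, and none of the 6 did. The 95% interval of that difference was -0.64 to 0.31 for Rhox6, -1.50 to 0.14 for Plac8 and -1.52 to 0.14 for Dlx3. A response smaller in dKOert cells by up to the lower limit thus lies inside each interval.

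Within a line, the response at 16 h minus that at 8 h was described for CKOert cells. It ran from -1.40 ± 0.43 for Gata2 to -0.50 ± 0.15 for Id2, negative for all 6, a direction to which the choice of genes contributes. In dKOert cells it ran from -0.11 ± 0.23 for Rhox6 to 0.51 ± 0.43 for Gata2, with none of the 6 passing and none at an unadjusted p under 0.05 (limma adjusted p of 0.782 to 0.928). There too 0% of all genes passed, with 714 at an unadjusted p under 0.05.

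Set against CKO cells, which received tamoxifen without GRHL2-ERT, CKOert cells with tamoxifen were higher for 2 of the 6 genes at 16 h, where 0.975% of all genes passed. This comparison shares its CKOert tamoxifen libraries with the response at 16 h. Dlx3 had 1.95, 1.47 and 2.08 CPM in CKOert cells, against 0.121, 0.454 and 0.0664 CPM in CKO cells, a difference of 1.23 ± 0.29 (limma adjusted p = 0.0272). Rhox6 had 34.4, 34.2 and 28.3 CPM in CKOert cells, against 21.5, 18.5 and 20.5 CPM in CKO cells, a difference of 0.65 ± 0.16 (limma adjusted p = 0.0484). For both, all 3 CKOert libraries were above all 3 CKO libraries. Neither call was stable: leaving out any 1 of the 6 libraries ended the call of Rhox6 (limma adjusted p of 0.0674 to 0.214), and leaving out any but CKO replicate 2 ended that of Dlx3 (0.0469 to 0.141).

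Plac8 was on the other side in that comparison, with 8.33, 6.93 and 10.1 CPM in CKOert cells, against 12.5, 14.2 and 14.6 CPM in CKO cells (-0.65 ± 0.28, limma adjusted p = 0.45). With array weights it passed as lower, at -0.68 (limma adjusted p = 0.0243; 0.0243 to 0.978 over the other settings). Gata2 (0.27), Id2 (0.20) and Esx1 (0.19) differed by less than 0.5 and did not pass. Ethanol-treated CKOert cells, in which the fusion is present but not induced, can be set against CKO cells only with the agent differing as well. At 16 h none of the 6 passed in that comparison, where 0.169% of all genes did, and Plac8 alone of the 6 had an unadjusted p under 0.05 (limma). That p was under 0.05 for 845 of all 12414 genes. Plac8 had 8.24, 8.42 and 9.56 CPM in ethanol-treated CKOert cells, below the 3 CKO libraries (-0.60 ± 0.28, limma adjusted p = 0.715), and the other 5 genes overlapped. At 8 h the same comparisons use the libraries that chose the genes. There CKO cells had 5.70, 9.07 and 6.30 CPM of Gata2, 0.317, 0.263 and 0.215 CPM of Dlx3 and 5.22, 5.91 and 4.68 CPM of Esx1. They had 20.6, 19.4 and 24.7 CPM of Rhox6, 87.1, 112 and 97.2 CPM of Id2 and 1.37, 1.58 and 1.72 CPM of Plac8. All 6 genes lay higher in every CKOert tamoxifen library than in every CKO library at 8 h, a direction to which the choice of genes contributes. Their differences were 2.06 for Rhox6, 1.55 for Dlx3, 1.21 for Esx1, 0.67 for Gata2, 0.64 for Plac8 and 0.50 for Id2. Over all genes 4.07% were called in this contrast, from which nothing is read here for genes chosen by its libraries.

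Levels also differed between the lines. In ethanol at 16 h, 4 of the 6 genes were higher in dKOert than in CKOert cells, against a background in which 50.0% of all genes passed, so 4 of 6 is near the background. Rhox6 had 95.8, 113 and 111 CPM in dKOert cells, against 23.0, 13.3 and 27.1 CPM in CKOert cells (2.33 ± 0.16, limma adjusted p = 3.39e-12). Gata2 had 29.1, 29.2 and 31.8 CPM in dKOert cells, against 8.69, 5.80 and 8.13 CPM in CKOert cells (1.88 ± 0.30, limma adjusted p = 1.12e-05). Id2 had 93.6, 113 and 113 CPM in dKOert cells, against 49.1, 44.1 and 40.1 CPM in CKOert cells (1.24 ± 0.11, limma adjusted p = 2.21e-10). These 3 genes had no dKOert library near the CKOert range. Esx1 was higher by 0.81 ± 0.24 (limma adjusted p = 0.00738), while Dlx3 (0.43, 0.219) and Plac8 (-0.22, 0.544) did not pass. The median of all genes was itself 0.35 in this comparison, and 80.1% of the called genes were higher in dKOert cells.

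With median-of-ratios scaling the median of all genes was 0.02 and 50.0% of the called genes were higher. Rhox6 was then higher by 1.97, Gata2 by 1.53 and Id2 by 0.88, all still called, and Esx1 was not called at 0.55 (limma adjusted p = 0.0871). With tamoxifen at 16 h, where 51.3% of all genes passed, the same 4 genes were higher in dKOert cells, by 2.17 for Rhox6, 1.95 for Gata2, 1.21 for Id2 and 0.82 for Esx1. Plac8 was lower, at -0.90 ± 0.28 (limma adjusted p = 0.00958), with 3.86 to 4.51 CPM in dKOert cells, against 6.93 to 10.1 CPM in CKOert cells. Dlx3 did not pass, at -0.26 (limma adjusted p = 0.469). There 80.4% of called genes were higher, and 50.1% with median-of-ratios scaling, which kept the calls of Rhox6, Gata2, Id2 and Plac8 and lost that of Esx1 (0.51, limma adjusted p = 0.109). Primitive endoderm markers (6 of 9 in the table) moved with the line, with sums of 33.7 to 49.2 CPM in dKOert cells at 16 h, against 1.35 to 3.69 CPM in CKOert cells. Dab2 gave most of the dKOert sum, in ethanol 27.8 CPM, against 0.887 CPM in CKOert cells, while Amn averaged 1.13 and 1.10 CPM. Trophoblast stem cell markers (5 of 8 in the table) summed to 137 to 165 CPM in dKOert cells, against 155 to 177 CPM in CKOert cells. Fibroblast markers (3 of 5 in the table) summed to 2.25 to 5.64 CPM in dKOert cells, against 0.575 to 1.2 CPM in CKOert cells. The part of these cell types in the line difference was not tested. The lines are selected clones, so that genotype and clone cannot be told apart.

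At 8 h, described only, ethanol-treated dKOert cells had 21.4, 21.6 and 11.0 CPM of Gata2, against 2.92, 6.49 and 3.08 CPM in CKOert cells. Rhox6 had 54.3 to 59.1 CPM in dKOert cells, against 21.6 to 25.7 CPM in CKOert cells. Plac8 was 2.18 to 5.67 CPM in dKOert cells, against 0.595 to 1.14 CPM in CKOert cells. With tamoxifen at 8 h all 6 genes overlapped between the lines, where 44.5% of all genes were called. That contrast uses CKOert libraries that chose the genes and the dKOert libraries that stood apart from one another. Nothing is read from the overlap here.

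Levels also differed between the times in cells without GRHL2-ERT. In CKO cells 3 of the 6 differed between 16 h and 8 h of tamoxifen, where 36.6% of all genes passed, so 3 of 6 is near the background. Plac8 was higher, with 12.5, 14.2 and 14.6 CPM at 16 h, against 1.37, 1.58 and 1.72 CPM at 8 h (2.53 ± 0.28, limma adjusted p = 2.08e-07), a ratio of means of 8.84. Id2 was lower, with 41.5, 36.0 and 43.3 CPM at 16 h, against 87.1, 112 and 97.2 CPM at 8 h (-1.27 ± 0.11, limma adjusted p = 1.42e-09). Esx1 was lower as well, with 3.70, 1.89 and 1.06 CPM at 16 h, against 5.22, 5.91 and 4.68 CPM at 8 h (-1.04 ± 0.24, limma adjusted p = 0.00158). All 3 genes had times that did not overlap, with Plac8 on the high side at 16 h and the others on the low side. The share of all genes without such overlap was not counted. Gata2 (-0.23), Rhox6 (-0.08, and 0.08 with median-of-ratios scaling) and Dlx3 (-0.07) did not pass. The median of all genes was -0.15, and 29.8% of called genes were higher at 16 h (51.8% with median-of-ratios scaling, which kept the 3 calls).

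In ethanol-treated dKOert cells 2 of the 6 differed between the times, where 21.3% of all genes passed, so 2 of 6 is near the background. Rhox6 was higher, with 95.8, 113 and 111 CPM at 16 h, against 54.3, 53.5 and 59.1 CPM at 8 h (0.92 ± 0.16, limma adjusted p = 0.000334). Esx1 was lower, with 4.09, 4.18 and 2.53 CPM at 16 h, against 5.83, 7.21 and 6.02 CPM at 8 h (-0.69 ± 0.24, limma adjusted p = 0.0422). That call of Esx1 was lost when any 1 of the 6 libraries was left out (0.0555 to 0.194) and with median-of-ratios scaling (0.0851). Gata2 (0.77, limma adjusted p = 0.0703) and Plac8 (0.74, 0.0624) did not pass, but did with median-of-ratios scaling (0.0355 and 0.0395; over the other settings 0.0118 to 0.362 for Gata2 and 0.0107 to 0.418 for Plac8). Id2 (-0.17) and Dlx3 (0.07) did not pass. Of the called genes 41.0% were higher at 16 h, and 58.1% with median-of-ratios scaling. Ethanol-treated CKOert cells, described only, had Plac8 at 8.24 to 9.56 CPM at 16 h, against 0.595 to 1.14 CPM at 8 h, and Id2 at 40.1 to 49.1 CPM at 16 h, against 86.8 to 101 CPM at 8 h. Rn45s also moved with time, at 1.85% to 2.61% of CPM at 16 h, against 3.10% to 7.40% at 8 h. So did the summed genes of the two-cell-like state (4 of 9 in the table), at 38.1 to 45.5 CPM in CKO cells at 16 h, against 1.55 to 2.78 CPM at 8 h. In ethanol-treated CKOert cells they summed to 15.0 to 16.3 CPM at 16 h, against 0.325 to 2.14 CPM at 8 h, while in ethanol-treated dKOert cells the times overlapped. The part of either in the result was not tested. Whether the times also differ in culture or library set was not tested either.

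**Figure D3:**
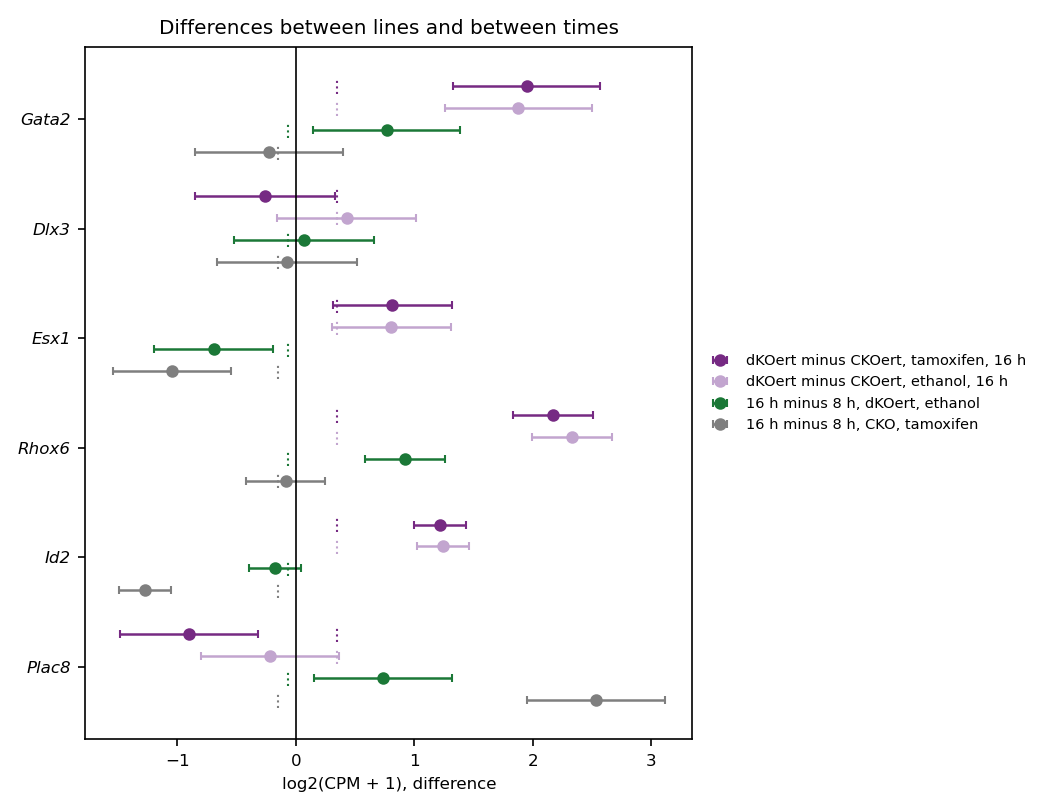
Differences in log2(CPM + 1) between lines at 16 h (dKOert minus CKOert, with tamoxifen and with ethanol) and between times (16 h minus 8 h, in ethanol-treated dKOert cells and in CKO cells), with 95% intervals of the limma fit; dotted ticks mark the median of all genes. Rhox6 and Gata2 lie between 1.88 and 2.33 for the lines, and Plac8 in CKO cells lies at 2.53 for time.

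Across the 10 groups the order of levels differed from gene to gene. Rhox6 was highest in dKOert cells with tamoxifen at 16 h (148 ± 5.4 CPM), followed by dKOert cells with ethanol at 16 h (106 ± 9.3), CKOert cells with tamoxifen at 8 h (92.6 ± 11), and dKOert cells with tamoxifen (84.7 ± 12) and ethanol (55.6 ± 3.0) at 8 h. CKOert cells with tamoxifen at 16 h stood at 32.3 ± 3.5 CPM, above the 4 remaining groups at 20.2 to 23.0 CPM, which overlapped from one to the next. Gata2 had its 4 highest means in the 4 dKOert groups, from 31.0 ± 7.3 to 13.3 ± 7.5 CPM, and its lowest in CKOert cells with ethanol at 8 h (4.16 ± 2.0 CPM). Id2 was highest in CKOert cells with tamoxifen at 8 h (139 ± 9.8 CPM) and above 94 CPM in every group except CKOert and CKO cells at 16 h, which had 40.2 to 46.2 CPM. Esx1 had its 5 highest means in the 5 groups at 8 h, from 13.7 ± 2.7 CPM in CKOert cells with tamoxifen to 5.27 ± 0.62 CPM in CKO cells. Dlx3 was highest in CKOert cells with tamoxifen at 8 h (2.95 ± 1.7 CPM) and 16 h (1.83 ± 0.32 CPM), and under 0.34 CPM in CKOert cells with ethanol and in CKO cells. Plac8 was highest in CKO cells at 16 h (13.8 ± 1.1 CPM) and lowest in CKOert cells with ethanol at 8 h (0.903 ± 0.28 CPM). Of 9 neighbouring pairs in each order, libraries did not overlap in 4 for Rhox6, 4 for Plac8, 3 for Id2, 2 for Gata2, 1 for Dlx3 and 1 for Esx1. Such pairs were not counted for other genes, and nothing is read from these numbers.

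Over the 10 group means, Pearson correlations of log2(CPM + 1) between the genes were highest for Esx1 with Id2 (0.90) and Gata2 with Rhox6 (0.88), and lowest for Esx1 with Plac8 (-0.74) and Id2 with Plac8 (-0.73). These are descriptions over groups that share line and time. By the same measure the genes closest to each, among 9594 or 9595 whose largest group mean reached 5 CPM, were Tob2 (0.98), Slc38a4 (0.98) and Gulp1 (0.97) for Gata2, and included Acsl5 (0.95) and Atox1 (0.93) for Dlx3. For Esx1 they were Fuca1 (0.99), Ndor1 (0.97) and Tbc1d10a (0.97), and for Rhox6 the neighbouring Rhox9 (0.97), Sp6 (0.97) and Fuca2 (0.96). Id2 was closest to Cxx1b (1.00), Ankhd1 (0.98) and Cxx1c (0.98), and Plac8 to Pnrc1 (0.98), Rab38 (0.97) and Mettl18 (0.96). With ranks, or over single libraries, 13 of 36 such places stayed among the closest 3.

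Other trophoblast genes were followed in a list of 94, of which 69 were tested, 63 of them besides the 6. In CKOert cells at 8 h, 7 of the 63 rose with tamoxifen and 1 fell, where 4.95% of all genes were called. The median was 0.29 over the 63 against 0.03 over all genes. The list was chosen with earlier results of these data known, so these numbers are a description of its genes. Wnt7b, a secreted WNT ligand needed where the mouse chorion and allantois join, averaged 20.8 ± 3.5 CPM with tamoxifen and 1.30 ± 0.22 CPM with ethanol (3.24 ± 0.24, limma adjusted p = 4.33e-10). Arid3a, a DNA-binding factor of trophectoderm, averaged 29.2 ± 2.5 CPM with tamoxifen and 12.8 ± 1.5 CPM with ethanol (1.13 ± 0.15, limma adjusted p = 1.21e-05). Sp6, a zinc-finger factor, averaged 6.17 ± 1.1 CPM with tamoxifen and 1.31 ± 0.70 CPM with ethanol (1.67 ± 0.25, limma adjusted p = 7.88e-05). Rhox9, a homeobox gene next to Rhox6, averaged 23.9 ± 1.9 CPM with tamoxifen and 9.45 ± 3.0 CPM with ethanol (1.29 ± 0.20, limma adjusted p = 1.01e-04). The other 3 that rose were Lgals3 and the keratins Krt8 and Krt18, and the 1 that fell was Klf5 (-0.37, limma adjusted p = 0.0464). Leaving out each library in turn, 9 to 13 of all 69 were higher and 0 lower.

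In dKOert cells 0 of the 69 trophoblast genes passed at 8 h and 0 at 16 h (limma). Without tamoxifen replicate 3, 8 were higher and 14 lower at 8 h, with Rhox6 among those higher and Gata2 and Plac8 among those lower. Wnt7b averaged 1.54 ± 0.52 CPM with tamoxifen and 0.773 ± 0.39 CPM with ethanol in dKOert cells at 8 h. In CKOert cells at 16 h, 2 of the 63 were called as higher, Wnt7b (1.65, limma adjusted p = 0.000199) and Plac9a (2.28, limma adjusted p = 0.00415), and 0 as lower. Plac9a has a near-identical copy, Plac9b, between which reads may be split, and it is listed at 0 in every group at 8 h. Plac9a averaged 7.31 ± 1.2 CPM with tamoxifen and 1.32 ± 2.3 CPM with ethanol at 16 h. Plac9b went the other way, at 12.1 ± 0.93 and 18.1 ± 3.3 CPM, so a rise of the pair is not shown. For Wnt7b the averages at 16 h were 4.59 ± 1.0 CPM with tamoxifen and 0.777 ± 0.29 CPM with ethanol. Against CKO cells at 16 h, Wnt7b (1.76, limma adjusted p = 6.49e-05) and Arid3a (0.62, limma adjusted p = 0.0363) were higher in CKOert cells besides Dlx3 and Rhox6, 4 of the 69 in all. Leaving out each library in turn, 1 to 2 of the 69 were higher, Wnt7b each time. Between lines in ethanol at 16 h, 42 of the 69 were higher and 5 lower in dKOert cells, where 50.0% of all genes passed. The median was 0.97 over the 69 against 0.35 over all genes.

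**Figure D4:**
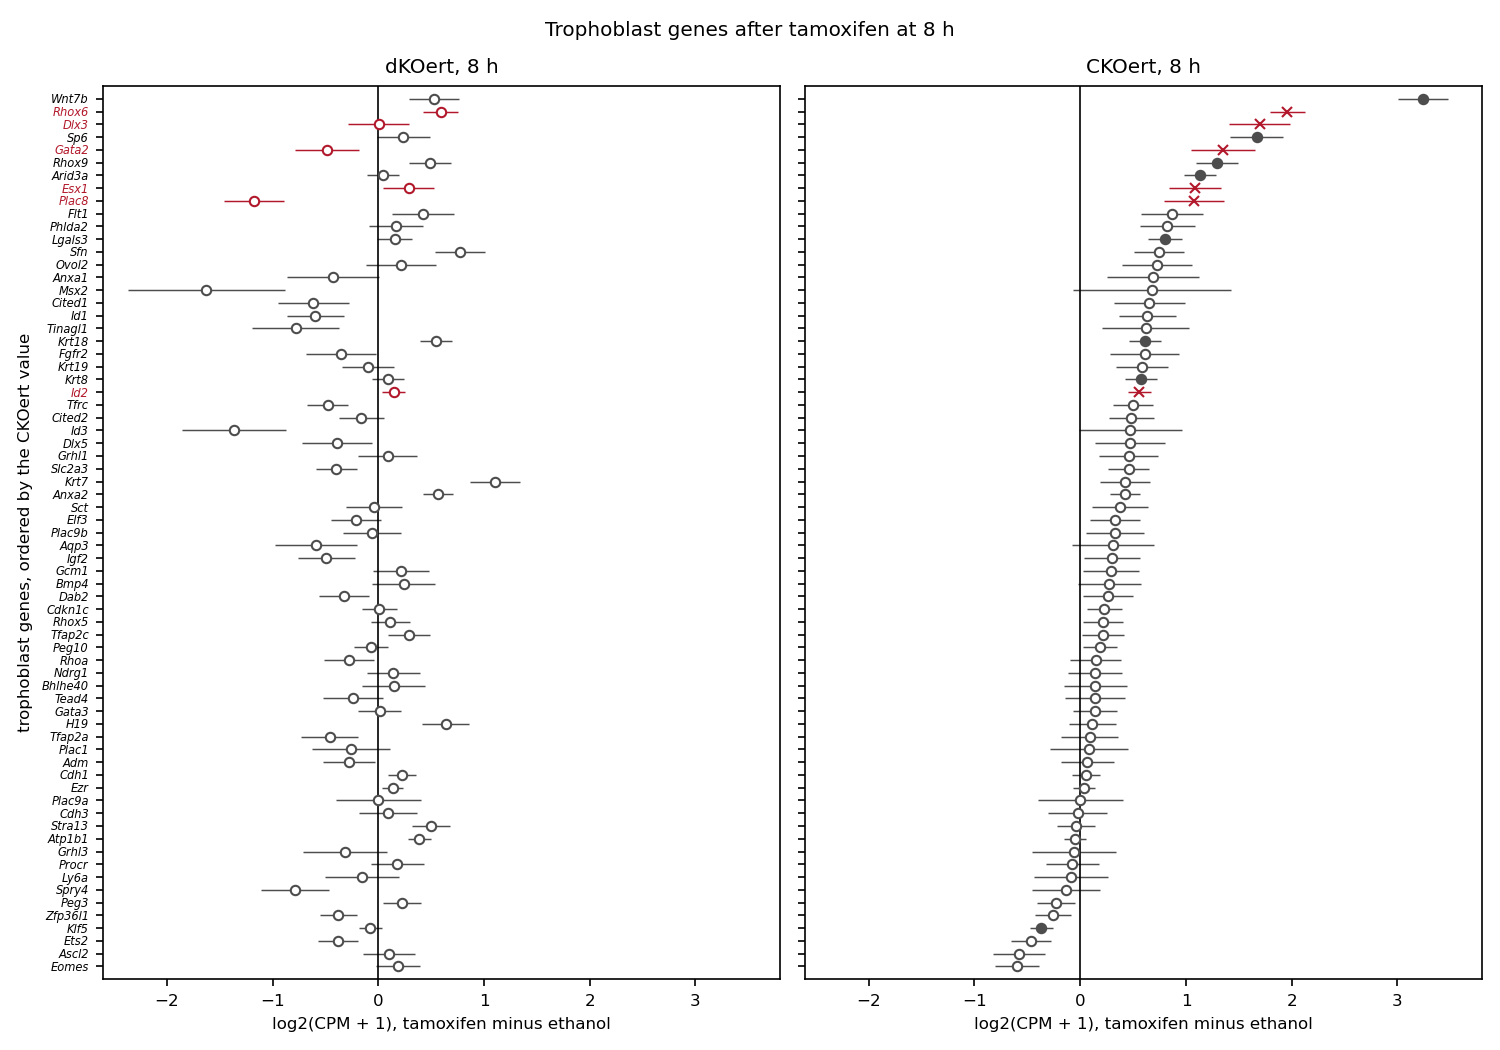
Difference in log2(CPM + 1) between tamoxifen and ethanol at 8 h (horizontal axis, bars of 1 SE) for 69 trophoblast genes (vertical axis, ordered by the CKOert value) in dKOert cells on the left and CKOert cells on the right. Filled points passed the test, open points did not, the 6 genes are in red, and crosses mark those described only; Wnt7b has 3.24 in CKOert cells.

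Families of the 6 genes were also followed, in lists likewise chosen with earlier results of these data known. In CKOert cells at 8 h the called members other than the 6 were Rhox9 among 4 further Rhox genes tested, Msx1 (0.86 ± 0.25, limma adjusted p = 0.0394) among 4 further Dlx and Msx genes, and Hes6 (-0.52 ± 0.15, limma adjusted p = 0.0425) among 8 further Id and E protein genes. None of 5 further GATA factors and none of 3 further Plac genes passed (limma), and of 19 further genes of the BMP pathway, which induces Id genes, Msx1 alone was higher. Of 15 Hippo pathway genes 0 passed in either direction. Of 18 epithelial genes known as GRHL2 targets, 4 rose in dKOert cells at 8 h, against 10 in CKOert cells, and 3 rose in dKOert cells at 16 h, against 5 in CKOert cells, and the others did not pass. Leaving out each library in turn, 3 were called as higher in dKOert cells at 16 h every time, against 2 to 4 in CKOert cells. The difference between the lines in these numbers was not tested. Cldn4, a tight junction protein, rose by 0.92 ± 0.13 at 8 h and Epcam, an adhesion protein, by 1.26 ± 0.15 in dKOert cells, against 0.75 ± 0.13 and 0.77 ± 0.15 in CKOert cells. Tmem54 rose by 1.80 ± 0.25 in dKOert cells, against 3.08 ± 0.25 in CKOert cells. These 3 were called in dKOert cells at both times, with Ppl besides at 8 h, and the CKOert calls at 16 h were Cldn4, Cldn6, Esrp1, Ppl and Tmem54. Of 18 naive pluripotency genes 0 rose and 5 fell in CKOert cells at 8 h, Klf4, Klf5, Sox2, Tcl1 and Zfp42, and 0 passed in dKOert cells. Of 9 primitive endoderm genes Sparc alone passed in CKOert cells at 8 h, lower with tamoxifen, and of 4 genes of the two-cell-like state 0 passed.

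The nearest measured genes on each side were followed as well. With 1 gene a side, at up to 1792 kb, they cannot show whether a whole region moved. Of 12 such neighbours, Rhox9 alone, 69.2 kb past Rhox6, was called in CKOert cells at 8 h. On the other side of Rhox6, Rhox5 at 18.03 kb had a difference of 0.22 (limma adjusted p = 0.574). Gata2 lies between Rpn1 (88.6 kb, 0.20) and Eefsec (50.3 kb, -0.05), and Dlx3 between Itga3 (43.3 kb, 0.55) and Kat7 (149 kb, -0.09). Esx1 lies between Fam199x (32.9 kb, 0.34) and Nrk (1792 kb, 0.72), and Id2 between Kidins220 (30.6 kb, 0.04) and Rnf144a (1204 kb, -0.17). For Plac8 the neighbours were Cops4 (5.92 kb, -0.07) and Coq2 (82.5 kb, 0.32). Rhox6 and Rhox9 share sequence: 159 of 961 stretches of 50 bases in the Rhox6 transcript, 16.55%, occur in Rhox9, and of the 451 stretches in its last 500 bases 0 do. How reads were divided between these genes was not tested. Both genes were higher in dKOert than in CKOert cells in ethanol at 16 h, by 2.33 for Rhox6 and 1.94 ± 0.20 for Rhox9.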

How the data were processed

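RNA from 30 libraries was read as single-end 3' tags (QuantSeq, per the labels' protocols). The deposited table holds log2 values per gene, which equal the log2 of CPM plus 0.124871, as found from the values. Salmon, DESeq2 1.34.0 and mm10 stand in the submitters' processing notes, without roles, and further settings are not given in the sources used here. Reads were recovered from the spacing of low values, 94.7% to 97.6% of which were whole within 0.05 reads. The labels name no molecular identifiers, so floors cover counting error only.

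For the tests CPM were recomputed, and limma 3.58.1 (R 4.3.3) was fitted to log2(CPM + 1) of all 30 libraries with 1 mean per group, variance trend and robust moderation (20 residual degrees of freedom). Tested were 12414 genes that reached 1 CPM on average in some group, 14 were removed, and p was adjusted by Benjamini-Hochberg over all of them, two-sided, with calls under 0.05. A count test had been planned; it was not used because the deposited values are log2. The script was tested on simulated data. Labels number the replicates without saying that they were separate cultures, so p measures only the spread between libraries.

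The 6 genes and the gene lists were chosen with earlier results of these data known. Genes named besides the 6 are checks (Grhl2, Esr1, Kmt2c, Kmt2d), the 3 closest by correlation, up to 4 called genes of a list with the smallest adjusted p, and the nearest measured neighbours. Others named were chosen after their values were seen. One of the closest genes is not reported here. Contrasts that use the CKOert libraries at 8 h are described without a test for the 6 genes. Alternatives were pseudocounts of 0.1 and 5, no filter, a filter at 5 CPM, median-of-ratios scaling, array weights, a fit to only the libraries compared, a replicate block, and leaving out each library. Of the table's symbols, 11945 (96.1%) were placed once on GENCODE mouse release 21.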

Additional observations from a re-analysis of the deposited data

How the results depend on the processing

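Of 1551 log2 differences of the 6 genes recomputed under other settings, 1434 kept their direction and, where tested, their side of the threshold. Those of the 1434 without a test stayed within a limit set from their SE. Besides these, 22 came to pass, 33 ceased to, 43 changed sign and 19 without a test moved. The cause was not tested. Numbers of the 6 genes called moved as follows. CKOert response at 16 h (0): 2 with array weights, 1 with its libraries alone, 2 without the libraries that stand apart (a threshold of 0.97 chosen after seeing the data), 0 to 1 leaving out each library. dKOert response: 0 to 3 at 8 h leaving out each library, 1 at 16 h with array weights. CKOert against CKO cells with tamoxifen at 16 h (2): 1 with a pseudocount of 0.1, with at least 5 CPM or with median-of-ratios scaling, 0 with a pseudocount of 5, 3 with array weights (Plac8 lower in addition), 0 to 1 leaving out each library. 16 h against 8 h in ethanol-treated dKOert cells (2): 1 with a pseudocount of 0.1, 4 with a pseudocount of 5, array weights or without the libraries that stand apart, 1 to 2 leaving out each library.

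Pairing of samples by equal replicate number was not seen. Over 12 pairs of tamoxifen and ethanol libraries the correlation of deviations ran from -0.576 to 0.126. Of these, 1 was over 0.1, and 2 had their best match in the own number. With groups of 3, low values do not show that samples were unpaired. With a replicate block over all libraries 1 of the 6 genes was called for CKOert against CKO cells at 16 h. With a replicate block within each line and time the numbers were 0 there, 3 for dKOert against CKOert cells with tamoxifen at 16 h (5 without the block), 3 with ethanol at 16 h (4 without it, Esx1 lost at 0.91, adjusted p = 0.0619), and 0 for time in ethanol-treated dKOert cells.

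Signs changed for Dlx3 at 8 h in dKOert cells (-0.19 at a pseudocount of 0.1), for Esx1 in the difference of responses at 16 h (-0.082 at a pseudocount of 0.1, -0.036 with median-of-ratios scaling, -0.046 with array weights), and for Rhox6 in ethanol-treated CKOert against CKO cells at 16 h (-0.023) and over time in CKO cells (0.081), both with median-of-ratios scaling. Dlx3 over time in dKOert cells turned to -0.13 with array weights and -0.00063 with the replicate block within line and time. Leaving out each library, signs changed in these ranges: CKOert response at 16 h, Gata2 -0.21 to 0.049, Id2 -0.013 to 0.13, Plac8 -0.18 to 0.066; dKOert response, Dlx3 -0.36 to 0.24 at 8 h, Gata2 -0.098 to 0.22 and Id2 -0.059 to 0.077 at 16 h. Difference of responses at 16 h: Gata2 -0.048 to 0.27, Esx1 -0.17 to 0.10, Rhox6 -0.36 to 0.12, Id2 -0.12 to 0.043; in dKOert cells between times Esx1 -0.042 to 0.37. Against CKO cells at 16 h: Esx1 -0.093 to 0.50 with tamoxifen, Esx1 -0.51 to 0.085 and Rhox6 -0.19 to 0.30 with ethanol. Over time: Dlx3 -0.21 to 0.014 and Rhox6 -0.15 to 0.013 in CKO cells, Dlx3 -0.13 to 0.33 in dKOert cells.

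Over all genes, array weights gave 242 calls for the CKOert response at 16 h, against 37, 1 and 206 for the dKOert responses at 8 h and 16 h, against 12 and 5, and 625 for CKOert against CKO cells, against 121. The dKOert response at 8 h had 3145 calls without tamoxifen replicate 3. With the replicate block within line and time dKOert against CKOert cells in ethanol fell to 3891, against 6203, and time in dKOert cells to 748, against 2639. Without the libraries that stand apart the CKOert responses had 1355 at 8 h, against 615, and 65 at 16 h. With median-of-ratios scaling the share higher among called genes was 84.6% for the dKOert response at 8 h, against 66.7%, and 15.8% for ethanol-treated CKOert against CKO cells at 16 h, against 42.9%. The pseudocount set the size for low genes: Dlx3 in CKOert cells at 8 h was 3.76 at 0.1 and 0.60 at 5. Comparisons that use the dKOert tamoxifen libraries at 8 h have no value without the libraries that stand apart. At 3 libraries a group and this depth, Dlx3 in uninduced cells lies near the floor of 3 reads.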
